A study of Homo sapiens with 14 samples.

Results

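The core RNA exosome genes, EXOSC1 to EXOSC10, were followed in MDA-MB-231 cells exposed to RBI2 or CX-5461. They were chosen by symbol, and all 10 were found among 60876 annotated genes. All 10 also passed the filter on low counts, which kept 15426 genes. The RNA exosome degrades and trims RNA from the 3′ end in the nucleus and the cytoplasm, and it processes the precursors of rRNA. EXOSC4, EXOSC5, EXOSC6, EXOSC7, EXOSC8 and EXOSC9 form a ring of RNase PH-like proteins that has no catalytic activity of its own in humans. EXOSC1, EXOSC2 and EXOSC3 form a cap of RNA-binding proteins on that ring, and EXOSC10 is a 3′ exonuclease that joins the complex in the nucleus. Unstable nuclear RNAs are handed to the complex by the TRAMP and NEXT adaptors, and cytoplasmic mRNAs by the SKI complex.

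MDA-MB-231 is an established breast cancer cell line without hormone receptors and with mesenchymal features. Each of 6 treated groups held cells given 5 µM RBI2, an inhibitor of ribosome biogenesis found by screening, or 5 µM CX-5461, an inhibitor of RNA polymerase I, with a label of 10, 30 or 120 min. The control cells have no compound and no time in the labels, and the study's text calls them untreated in one place and DMSO-treated in another. Every group had 2 libraries of poly(A) RNA, 14 in all, and the labels do not say whether the replicates were separate cultures, so the p-values measure the spread between these libraries, which may be technical. The times used below are those of the sample labels. The deposited data also carry a different set of time codes, so neither the times nor their order can be settled, and each treated group is called by its label only. The grouping of the libraries is the same under both sets.

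The libraries held between 14112299 and 24849354 estimated reads. VIM, CD44 and AXL, which mark mesenchymal-like breast cancer cells, were at 239 TPM, a level per transcript length and library size, or more in all 14 libraries, EGFR lay between 17.4 and 37.8 TPM, and ESR1, PGR and CDH1, which mark luminal cells, were at or below 0.285 TPM. EPCAM, an epithelial marker, lay between 11.4 and 22.4 TPM. Control replicate 2 stood apart from the rest. Mitochondrial genes took 20.6% of its reads against 8.14% to 11.3% in the other 13 libraries. It was the lowest of the 14 libraries for EXOSC4, EXOSC5, EXOSC6 and EXOSC7, as for 25% of all genes tested, and the highest for EXOSC9 and EXOSC10, as for 23%. The range of each member's log2 fold changes against the control is therefore given with and without it.

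Per unit of transcript length, the subunits of the complex were not present at equal mRNA levels. EXOSC3, of the cap, was the highest, with 126 to 172 TPM and a median of 144 TPM. EXOSC6, of the ring, was the lowest, with 9.94 to 28.8 TPM and a median of 22.7 TPM, so that the highest and lowest medians differed 6.37-fold. Between them lay EXOSC9 with a median of 111 TPM, EXOSC8 with 108 TPM, EXOSC1 with 90.0 TPM, EXOSC2 with 87.1 TPM, EXOSC10 with 70.5 TPM, EXOSC7 with 64.8 TPM, EXOSC5 with 45.9 TPM and EXOSC4 with 40.5 TPM. Only 2 neighbours in this order had ranges over the 14 libraries that did not meet, namely EXOSC3 above EXOSC9 and EXOSC4 above EXOSC6. EXOSC9 was above EXOSC8 in only 6 libraries and EXOSC1 above EXOSC2 in 8, so these pairs have no order beyond their spread. The ring held both near-highest and lowest members, and no role group stood above the others as a block. The reads of a few members could be shared with neighbours. EXOSC3 shares its strand with the overlapping gene ENSG00000255872, which took a mean of 290 reads, so the level of EXOSC3 is uncertain. Whether the counting used strand is not given in the sources used here, so reads of genes that overlap on opposite strands may not be told apart. On the opposite strand EXOSC3 overlaps DCAF10 with a mean of 709 reads, EXOSC7 overlaps ZDHHC3 with 1633, EXOSC8 overlaps SUPT20H with 869 and ALG5 with 406, and EXOSC9 overlaps CCNA2 with 3587.

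**Figure D1:**
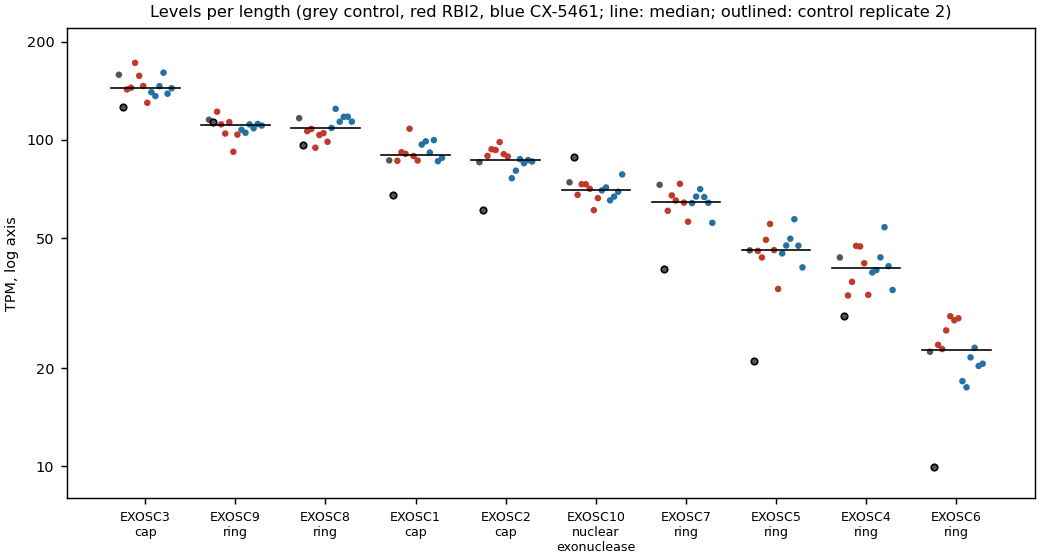
TPM of each core exosome gene in every library on a log axis, ordered by the median over the 14 libraries (line), with the subunit's place in the complex under its name. The medians run from 144 TPM for EXOSC3 to 22.7 TPM for EXOSC6, and outlined points are control replicate 2, which is the lowest point for EXOSC1 to EXOSC7.

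Changes within a gene are given in CPM, read counts scaled to the library's size with TMM factors. TMM assumes that most genes do not change, so a shift of all mRNA would not be seen, and fewer cells and less RNA per cell cannot be told apart. Among the 6 comparisons with the control, members passed an adjusted p of 0.05 in 1, RBI2 labelled 120 min. There EXOSC6 rose, while EXOSC9 and EXOSC10 fell, so 3 of the 10 passed. With RBI2 at this label 18% of all genes tested passed, 8.9% as higher and 9.07% as lower, so 3 of 10 is not far from the background. No member passed in the other 5 comparisons with the control, in which 0.201% of all genes tested passed for RBI2 labelled 10 min and 0.0713% for 30 min, and 4.77%, 0% and 0.0778% for CX-5461 labelled 10, 30 and 120 min. At an unadjusted p under 0.05, 3 members passed with RBI2 labelled 10 min and 3 with 30 min, where 12.9% and 25.8% of all genes did. With CX-5461 the corresponding counts were 2, 4 and 2 members, beside 22.5%, 22.9% and 12.4% of all genes. DESeq2 called 3 members for RBI2 labelled 30 min, where it called 12.8% of the genes to which it gave an adjusted p, and 0 in the other 4 of these comparisons, where it called 0.162% to 6.4%. The median log2 fold change of the 10 members in the 6 comparisons lay between -0.02 and 0.07, with 5 to 8 members above 0. Without control replicate 2 it lay between -0.14 and -0.02, with 0 to 4 members above 0, and without control replicate 1 between 0.07 and 0.15, with 6 to 8 above 0, so no common direction can be given for the members.

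The promoters of the 3 called genes are shown because these are the members whose mRNA passed the test. Each is the stretch of 250 bases before the RefSeq start site in GRCh38.p14, written 5′ to 3′ on the gene's strand. Capitals mark matches on either strand to 5 short motifs. These are the GC box, spelled GGGCGG, and the CCAAT box, spelled as its name. The others are the E-box, spelled CACGTG, the ETS core, spelled CCGGAAG, and the TATA box, spelled TATAAA. EXOSC6 lies on the minus strand (chr16:70251941-70252190), EXOSC9 on the plus strand (chr4:121801073-121801322) and EXOSC10 on the minus strand (chr1:11099870-11100119).
EXOSC6: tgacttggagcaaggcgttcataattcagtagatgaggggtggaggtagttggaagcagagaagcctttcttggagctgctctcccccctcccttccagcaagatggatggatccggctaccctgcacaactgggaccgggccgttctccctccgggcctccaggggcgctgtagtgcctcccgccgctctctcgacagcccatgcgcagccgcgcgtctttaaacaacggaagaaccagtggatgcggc
EXOSC9: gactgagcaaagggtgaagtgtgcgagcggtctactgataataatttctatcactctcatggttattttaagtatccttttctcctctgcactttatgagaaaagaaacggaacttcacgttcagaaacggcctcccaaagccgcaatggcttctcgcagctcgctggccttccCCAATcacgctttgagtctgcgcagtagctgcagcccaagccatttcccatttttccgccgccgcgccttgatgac
EXOSC10: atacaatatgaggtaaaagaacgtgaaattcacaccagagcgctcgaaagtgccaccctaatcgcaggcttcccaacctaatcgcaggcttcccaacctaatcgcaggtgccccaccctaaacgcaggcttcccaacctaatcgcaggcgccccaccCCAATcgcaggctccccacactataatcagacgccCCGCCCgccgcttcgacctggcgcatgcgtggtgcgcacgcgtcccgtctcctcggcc
The EXOSC6 stretch held none of the 5 motifs, EXOSC9 held 1 CCAAT box, and EXOSC10 held 1 CCAAT box and 1 GC box. The table of RefSeq promoters had entries for 8 of the 10 members, without EXOSC1 and EXOSC4. A GC box was found in 6 of these 8 and in 42.6% of 35116 promoter windows of the same length, and a CCAAT box in 4 of 8 and in 32% of the windows. EXOSC5 held the E-box found in 6.34% of windows, EXOSC8 held the TATA box found in 10.7%, and no member held the ETS core found in 8.52%. These matches are descriptions of the letters and no test of a factor.

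EXOSC6, the ring subunit known as MTR3 in yeast, is encoded on chromosome 16 (GRCh38, chr16:70246778-70251940, minus strand) by 1 annotated transcript of 5163 bases, so its reads were not divided between isoforms. Its promoter, shown above, is the only one of the 3 that holds none of the motifs. In the control libraries EXOSC6 was at 61.7 and 46.7 CPM. RBI2 gave 63.1 and 66.6 CPM in the group labelled 10 min, 71.2 and 73.8 CPM in that labelled 30 min, and 79.3 and 78.6 CPM in that labelled 120 min. CX-5461 gave 51.0 and 48.4 CPM in its first group by label, 59.9 and 61.9 CPM in the second, and 58.4 and 57.2 CPM in the third. All 6 RBI2 libraries were thus above both control libraries, the nearest being 63.1 and 61.7 CPM. The share of all genes with such a gap was not computed. The CX-5461 libraries lay in or near the range of the control. The RBI2 groups did not overlap each other and stood in the order of their labels, which 7.37% of all genes tested did with rising values. This holds in CPM. In TPM, a scale that also divides by the estimated length, the RBI2 groups labelled 30 min (26.1 and 28.8 TPM) and 120 min (28.0 and 28.4 TPM) overlapped.

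EXOSC6 rose by a log2 fold change of 0.54 ± 0.11 (SE) in the group labelled 120 min with RBI2 against the control (edgeR adjusted p = 0.0147). It was 0.34 and passed without control replicate 2 (edgeR adjusted p = 0.0238, where 9.61% of all genes passed), and without control replicate 1 it was 0.76 (edgeR adjusted p = 0.00011). The call was lost without either RBI2 library of that label (edgeR adjusted p = 0.0967 and 0.0728). The values at 10 and 30 min were 0.26 and 0.42 (edgeR adjusted p = 0.372 and 0.108). EXOSC6 had log2 fold changes of -0.13, 0.17 and 0.09 against the control in the CX-5461 groups, in the order of their labels, and none passed (edgeR adjusted p = 0.475, 0.348 and 0.748). The first of these became -0.32 and passed without control replicate 2, where 3.36% of all genes passed, and turned to 0.09 without control replicate 1, so no direction can be given for CX-5461. Over the 6 comparisons the values of EXOSC6 lay between -0.32 and 0.34 without control replicate 2, with 2 calls, and between 0.09 and 0.76 without control replicate 1, with 5 calls.

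**Figure D2:**
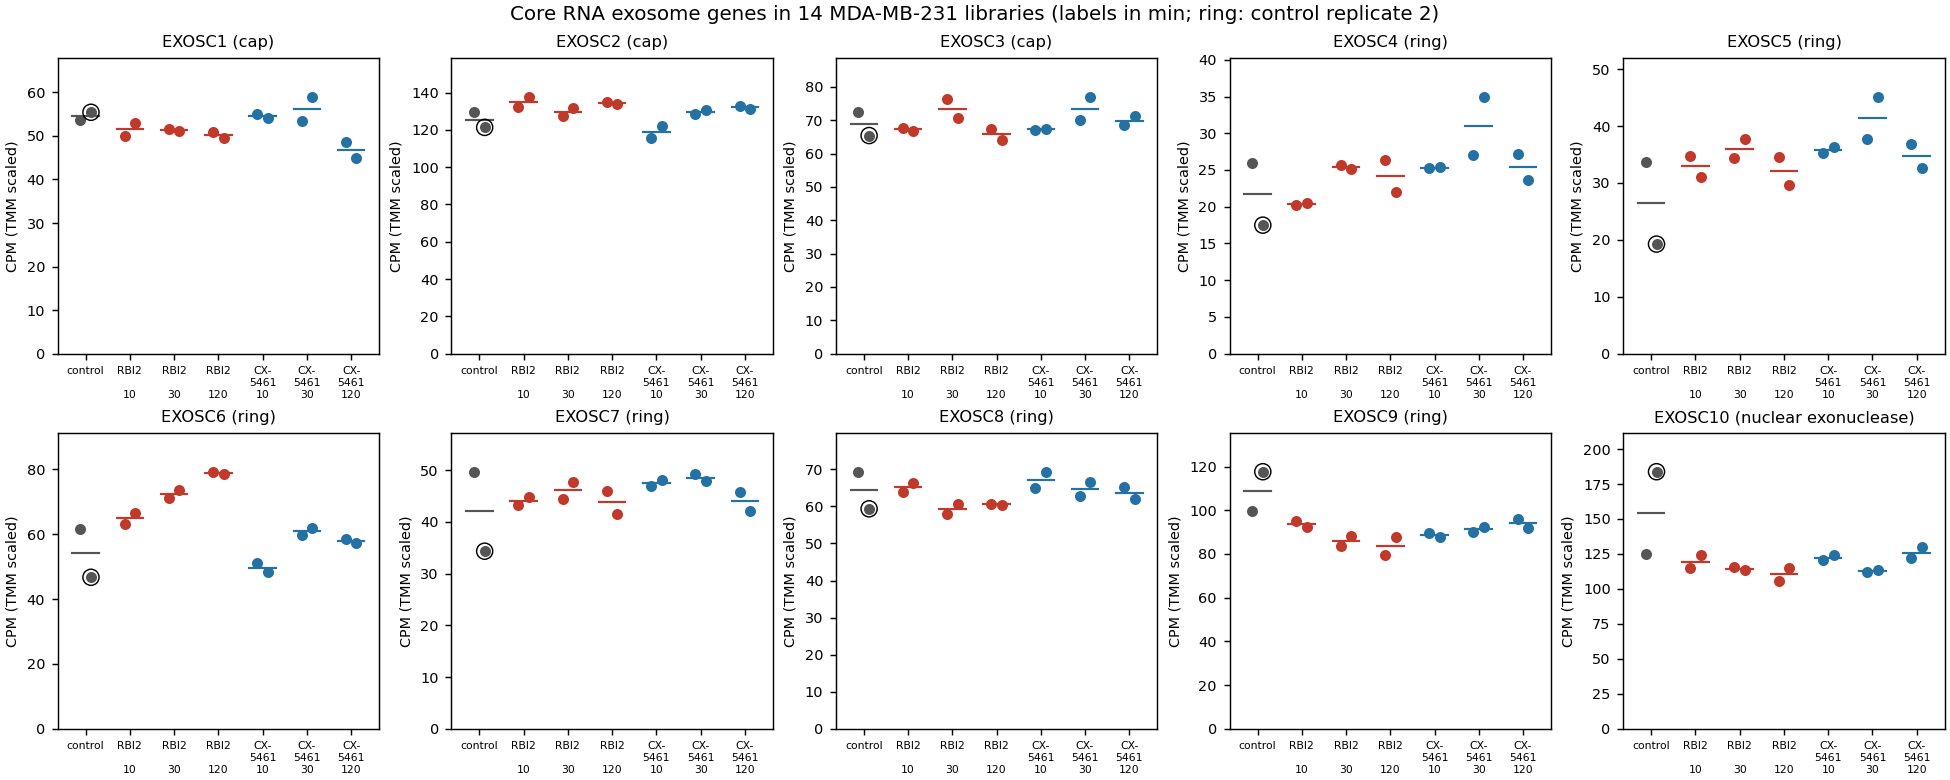
CPM of the 10 core exosome genes in each library (points) with the mean of the 2 libraries of a group (line), by compound and labelled time in min, each panel with its own axis from 0. EXOSC6 shows all 6 RBI2 libraries, from 63.1 CPM upward, above all 6 CX-5461 libraries, which reach 61.9 CPM, and the ringed control replicate 2 lies far from control replicate 1 for EXOSC4, EXOSC5, EXOSC7 and EXOSC10.

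EXOSC9, a ring subunit known as an autoantigen in polymyositis with scleroderma, was at 99.7 and 118 CPM in the control libraries. In the RBI2 groups it was at 95.3 and 92.2 CPM under the label 10 min, at 83.7 and 88.1 CPM under 30 min, and at 79.5 and 87.6 CPM under 120 min. The CX-5461 groups, in the same order, held 89.6 and 87.8 CPM, 90.3 and 92.4 CPM, and 96.2 and 92.0 CPM. Both control libraries were above all 12 treated ones in CPM, which held for 1.58% of all genes tested. In TPM RBI2 labelled 10 min replicate 1, at 122, was above both control libraries, at 115 and 114. EXOSC9 fell by 0.38 ± 0.09 (SE) on the log2 scale in the RBI2 group labelled 120 min (edgeR adjusted p = 0.021). The log2 fold change was -0.27 and no longer passed without control replicate 2 (edgeR adjusted p = 0.057), and the call was also lost without either RBI2 library of that label (edgeR adjusted p = 0.161 and 0.0625). The overlap with CCNA2, given above, leaves the level of EXOSC9 uncertain. The other 5 log2 fold changes against the control lay between -0.34 and -0.21, and none passed (edgeR adjusted p from 0.0919 to 0.378). Over all 6 comparisons the values of EXOSC9 lay between -0.27 and -0.11 without control replicate 2, with 0 calls. Without control replicate 1 they lay between -0.49 and -0.32 and passed in all 6 (edgeR adjusted p from 0.0006 to 0.0114).

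EXOSC10, the nuclear exonuclease that trims the 3′ ends of rRNA and small nucleolar RNA precursors, was at 125 and 184 CPM in the control libraries. In the 12 treated libraries it lay between 106 and 130.1 CPM, so that control replicate 2 was far above the rest, while control replicate 1 was within their range. EXOSC10 fell by 0.48 ± 0.14 (SE) on the log2 scale with RBI2 labelled 120 min (edgeR adjusted p = 0.0417). The log2 fold change was -0.19 without control replicate 2 (edgeR adjusted p = 0.12), so the size of this fall rests on that library. Leaving out any 1 library other than control replicate 1 ended the call (edgeR adjusted p from 0.0507 to 0.216). The other 5 log2 fold changes of EXOSC10 lay between -0.45 and -0.29 with both controls and did not pass. Over all 6 comparisons the values lay between -0.19 and -0.04 without control replicate 2, with 0 calls, and between -0.73 and -0.55 without control replicate 1, with 6 calls. The calls of all 3 genes with RBI2 labelled 120 min were lost with an offset for transcript length (edgeR adjusted p from 0.0934 to 0.101), where 1.4% of all genes passed, and with only the 4 libraries compared (edgeR adjusted p from 0.322 to 0.348), where 0% did. The effective lengths in control replicate 2 lay outside those of the other 13 libraries for every member except EXOSC1. For the 3 called genes they were 4339 bases against 3529 to 4092 for EXOSC6 and 953 against 1097 to 1200 for EXOSC9. For EXOSC10 the length was 1916 against 2228 to 2410.

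The other ring members with a low control replicate 2 showed the same split in the opposite direction. EXOSC5 was at 33.7 and 19.3 CPM in the control libraries and between 29.6 and 45.2 CPM in the treated ones. Its log2 fold change against the control lay between 0.27 and 0.64, with no call. Without control replicate 1 it lay between 0.74 and 1.11 and passed in all 6 comparisons, and without control replicate 2 between -0.09 and 0.29 with 0 calls. In the fits without control replicate 1, 30.8%, 40.4% and 45.3% of all genes passed for RBI2 labelled 10, 30 and 120 min, and 39.7%, 41.5% and 22.7% for CX-5461. EXOSC7, a ring subunit, was at 49.7 and 34.3 CPM in the control libraries and between 41.5 and 49.3 CPM in the treated ones. Its log2 fold changes of 0.06 to 0.20 turned to values between -0.25 and -0.04 without control replicate 2, with 0 calls. Without control replicate 1 they lay between 0.35 and 0.50 and passed in all 6 comparisons. EXOSC4, at 25.9 and 17.5 CPM in the control libraries and 20.3 to 35.0 CPM in the treated ones, had its largest value, 0.51, with CX-5461 labelled 30 min (edgeR adjusted p = 0.213), where the replicates were at 27.1 and 35.0 CPM. That value was 0.25 without control replicate 2 (edgeR adjusted p = 0.955) and 0.83 without control replicate 1 (edgeR adjusted p = 0.00322). Over the 6 comparisons EXOSC4 was below 0 in 1 with both controls and in 5 without control replicate 2, where the values lay between -0.37 and 0.25 with 0 calls. Without control replicate 1 they lay between 0.22 and 0.83 and passed in 5, so no direction can be given for EXOSC4. EXOSC8 lay between 57.9 and 69.4 CPM over all 14 libraries, and its log2 fold changes were between -0.12 and 0.06, with 3 of 6 below 0. Over all alternatives they ran from -0.41, with RBI2 labelled 30 min, to 0.18, with CX-5461 labelled 10 min. Without control replicate 2 all 6 were below 0, between -0.25 and -0.06, and without control replicate 1 they lay between -0.0036 and 0.18, with 0 calls in either case.

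Of the cap members, none passed in any comparison with the control. EXOSC1, known as CSL4 in yeast, lay between 45.02 and 59.03 CPM over the 14 libraries. Its largest log2 fold change, -0.22 ± 0.08 (SE), was with CX-5461 labelled 120 min (edgeR adjusted p = 0.339). The libraries of that group, at 48.7 and 45.02 CPM, were the lowest of the 14, and the share of all genes with this pattern was not computed. In TPM their mean was 87.1 against 77.2 in the control, so the direction was opposite. That rests on control replicate 2, at 67.9 TPM. Control replicate 1, at 86.6 TPM, lay between the 86.1 and 88.15 TPM of these CX-5461 libraries. Over the alternatives this log2 fold change lay between -0.33 and -0.03. EXOSC2, like EXOSC3 a protein with RNA-binding S1 and KH folds, lay between 115 and 138 CPM, with log2 fold changes between -0.08 and 0.11. EXOSC3, whose mutations cause pontocerebellar hypoplasia, lay between 64.2 and 77.1 CPM, with log2 fold changes between -0.07 and 0.09. The 95% intervals of these log2 fold changes for EXOSC2 reached no further than -0.22 and 0.25, and those for EXOSC3 no further than -0.25 and 0.27. These intervals hold for the edgeR fit of all 14 libraries only. Over the alternatives EXOSC3 reached -0.26, with RBI2 labelled 120 min. Without control replicate 2 the log2 fold changes lay between -0.26 and 0.06 for EXOSC1, between -0.14 and 0.04 for EXOSC2 and between -0.16 and 0.01 for EXOSC3. Without control replicate 1 they lay between -0.24 and 0.02, between -0.03 and 0.15, and between 0.01 and 0.17, and no cap member was called with either library left out.

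**Figure D3:**
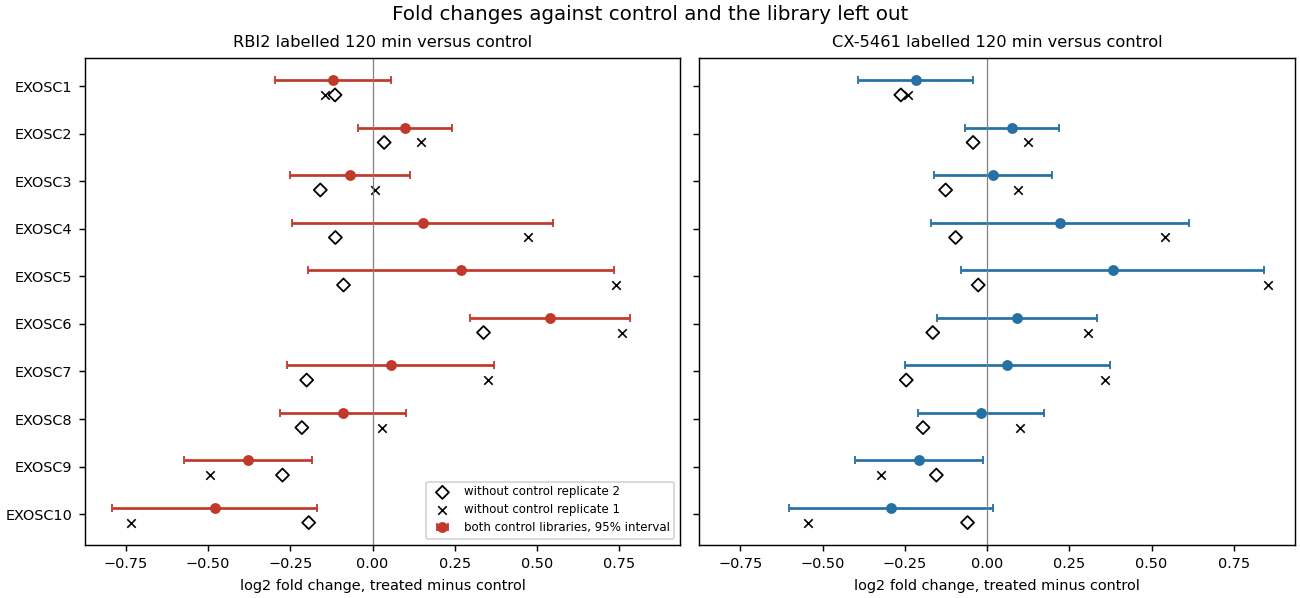
Log2 fold change of each member against the control for both compounds at the label 120 min, with both control libraries (filled, 95% interval from edgeR) and with 1 control library left out (diamond without replicate 2, cross without replicate 1). The symbols for a left-out control lie farthest apart for EXOSC4, EXOSC5, EXOSC7 and EXOSC10, and EXOSC6 with RBI2 stays above 0 in all 3, between 0.34 and 0.76.

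RBI2 and CX-5461 were compared directly in 4 ways, at each label and over all labels, and these comparisons do not use the control libraries in their fold change. EXOSC6 was the 1 member that passed. At the label 120 min EXOSC6 was 0.45 ± 0.11 (SE) higher on the log2 scale with RBI2 (edgeR adjusted p = 0.0231), where 16.1% of all genes tested passed and 5.28% as higher. Over all labels it was 0.36 ± 0.06 (SE) higher, with a 95% interval of 0.22 to 0.50 (edgeR adjusted p = 0.00853), where 8.59% of all genes passed and 6.01% as higher. All 6 RBI2 libraries were above all 6 CX-5461 libraries, the nearest being 63.1 and 61.9 CPM, and 1.66% of all genes tested showed such a gap in this direction. In TPM the lowest RBI2 library, at 22.9, was just under the highest CX-5461 library, at 23.1. At 10 and 30 min the log2 fold changes were 0.38 and 0.25 and did not pass (edgeR adjusted p = 0.105 and 0.628), where 3.06% and 0.013% of all genes did. A test of any difference among the 7 groups called EXOSC6 as its 1 member, beside 11% of all genes (edgeR adjusted p = 0.0235).

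The call for EXOSC6 over all labels held with each of the 14 libraries left out in turn (edgeR adjusted p from 0.00013 to 0.0406). It did not hold when the estimated transcript lengths entered as an offset, with a log2 fold change of 0.34 (edgeR adjusted p = 0.0797). The call at the label 120 min was lost without any 1 of the 4 libraries of that label (edgeR adjusted p from 0.0701 to 0.135), each of which leaves a group with 1 library that is assumed to vary like the others. At the label 10 min EXOSC6 passed once either control library was left out, where 6.68% of all genes passed without control replicate 1 and 6.9% without control replicate 2.

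For the other 9 members the 95% intervals over all labels are those of the edgeR fit of all 14 libraries. EXOSC4 had the widest difference, -0.22 with an interval of -0.45 to 0.0026 (edgeR adjusted p = 0.192). Without control replicate 1 it was also at -0.22 and passed by a narrow margin, as did EXOSC10 at the label 120 min, at -0.19. More of all genes passed in that fit. EXOSC5 had a value of -0.15 with an interval of -0.41 to 0.12, and EXOSC10 a value of -0.07 with an interval of -0.25 to 0.11. EXOSC1, EXOSC2 and EXOSC3, of the cap, differed by -0.04, 0.07 and -0.03, with intervals inside -0.14 to 0.15. The ring members EXOSC7, EXOSC8 and EXOSC9 differed by -0.06, -0.08 and -0.06. Over the alternatives EXOSC8 reached -0.22, below its interval of -0.19 to 0.03. In TPM the compounds did not overlap for EXOSC2, with 89.0 to 98.5 for RBI2 and 76.4 to 87.4 for CX-5461. For EXOSC8 they did not overlap in TPM either, with 94.7 to 108.1 for RBI2 and 108.85 to 124.6 for CX-5461. The share of all genes with such gaps in TPM was not computed. At the label 10 min EXOSC2 was 0.19 ± 0.06 (SE) higher with RBI2, at 132 and 138 CPM against 115 and 122 CPM, and did not pass (edgeR adjusted p = 0.192).

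**Figure D4:**
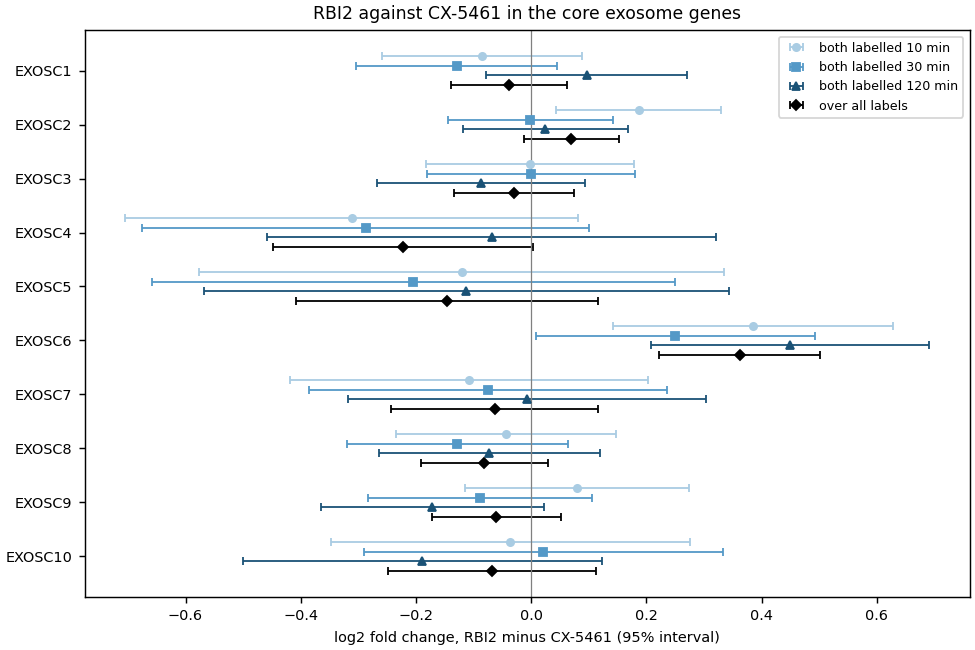
Log2 fold change of RBI2 minus CX-5461 for each core exosome gene at the 3 labels and over all labels, with 95% intervals from the edgeR fit. EXOSC6 lies to the right of 0 in all 4 rows, at 0.36 over all labels, and for the other 9 members the interval over all labels includes 0.

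Part of the reads of most members were assigned by the authors' Salmon run to transcripts that are not annotated as protein-coding, such as those with a retained intron or those marked as targets of nonsense-mediated decay (NMD). All reads of EXOSC4 and EXOSC6 were in protein-coding transcripts. For EXOSC3 the other transcripts took 25.1% to 31.7% of the reads and for EXOSC7 15.2% to 29.2%, with compounds that overlapped. These shares are given as descriptions without a test, they were looked at across all members, and the patterns below were picked after the values were seen. The reads were divided between isoforms by an estimate, so a share depends on that model as well as on the RNA.

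EXOSC2, of the cap, had more of its reads outside protein-coding transcripts with RBI2 than with CX-5461. RBI2 gave shares of 12.6% and 12.9% under the label 10 min, of 12.8% and 12.3% under 30 min, and of 19.8% and 13.1% under 120 min. The CX-5461 groups in the same order gave 5.58% and 5.37%, 9.22% and 7.30%, and 10.7% and 11.1%, and the control libraries gave 8.09% and 9.58%. All 6 RBI2 libraries were above both control libraries, for which the share of genes was not computed. They were also above all 6 CX-5461 libraries. This gap of RBI2 above CX-5461 held for 1.53% of 5507 protein-coding genes with a mean of at least 20 reads outside protein-coding transcripts. Of the 7 members in that set it held for EXOSC2 alone. The retained-intron transcript EXOSC2-207, of 2766 bases, ranged from 10.3 to 16.8 CPM with RBI2 and from 4.74 to 11.1 CPM with CX-5461, so this transcript alone did not separate the compounds. The main protein-coding transcript EXOSC2-204 overlapped between the compounds, at 99.5 to 114 CPM with RBI2 and 92.7 to 114 CPM with CX-5461.

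The libraries of CX-5461 labelled 10 min had the lowest such shares in 4 of those 7 members, EXOSC1, EXOSC2, EXOSC8 and EXOSC9. Both libraries of that group lay below the other 12 for 5.54% of the 5507 genes. For EXOSC9 the share was 9.64% and 9.59% in that group and between 16.5% and 23.6% in the other 12 libraries. The difference was carried by the NMD transcript EXOSC9-212, of 3882 bases, which was at 7.14 and 7.47 CPM in that group and between 13.8 and 20.8 CPM elsewhere. Among 2689 NMD transcripts with a mean of at least 20 reads, 2.19% had both libraries of that group below all others. The protein-coding transcript EXOSC9-201 was at 63.8 and 55.7 CPM there, inside the range of 39.8 to 67.1 CPM of the other libraries. For EXOSC8 the share was 3.85% and 6.57% in that group, 21.8% in control replicate 2 and 6.97% in control replicate 1, and between 7.46% and 15.2% in the other treated libraries. For EXOSC10 the share was 5.25% to 8.37% with RBI2 and 3.14% to 5.47% with CX-5461, and these ranges overlapped.

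**Figure D5:**
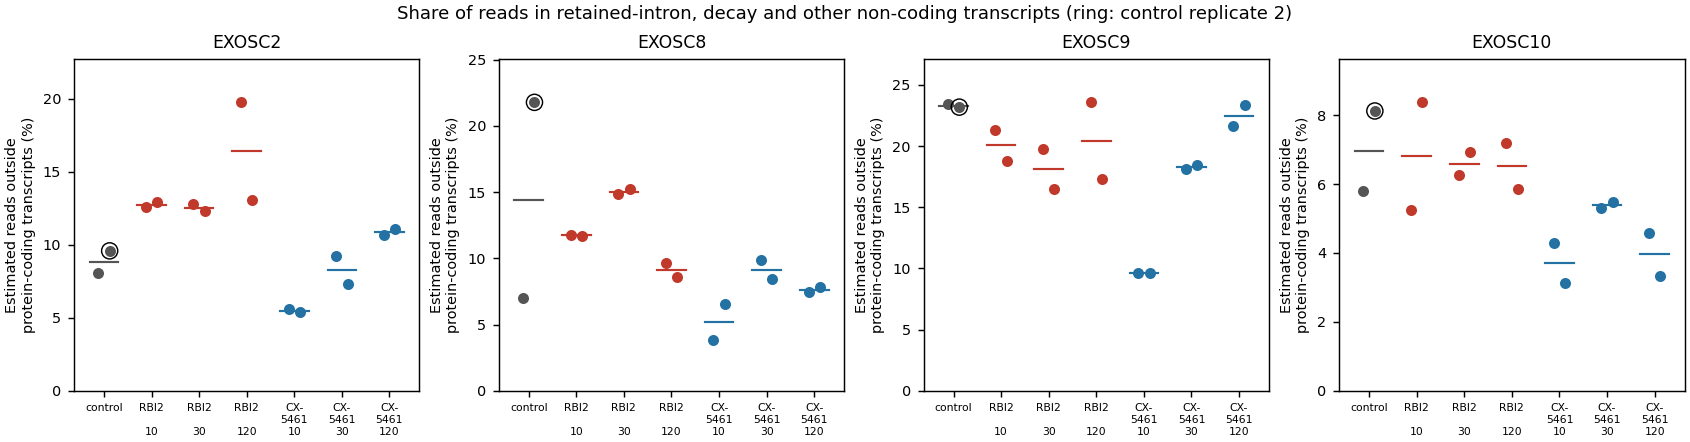
Percentage of estimated reads outside protein-coding transcripts for EXOSC2, EXOSC8, EXOSC9 and EXOSC10 in each library (points) with the group mean (line), by compound and labelled time in min. EXOSC2 shows the 6 RBI2 libraries at 12.3% or more, above the CX-5461 libraries at 11.1% or less, and EXOSC9 shows CX-5461 labelled 10 min below all other libraries.

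Over the 14 libraries the members did not move as a block. Of 45 pairs of members, the Pearson r of log2 CPM lay between -0.84 for EXOSC5 with EXOSC10 and 0.88 for EXOSC5 with EXOSC7, with a median of 0.12, and 5 pairs were over 0.7. The range was -0.68 to 0.83 without control replicate 2, and 1 pair was over 0.7. The libraries share their groups and their scaling, so these are descriptions without a p. The genes outside the complex most like the mean of the members were RPL10A, AARSD1 and ELP6, with r of 0.95, 0.93 and 0.93 over 14 libraries. Leaving out control replicate 2 gave RPL10A, IFRD2 and RHOG, with r of 0.92, 0.92 and 0.91 over 13 libraries.

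A list of 17 other exosome genes holds the catalytic subunits, the helicases, the TRAMP and NEXT adaptors and the SKI complex. With RBI2 labelled 120 min against the control, 1 of 17 rose and 7 fell, beside the background of 18%, and the median log2 fold change was -0.33 against -0.01 for the core and 0.01 for all genes tested. Those that fell were DIS3, DIS3L, MTREX, TENT4A, ZCCHC7, RBM7 and SKIC3, and SKIC2 rose. All of these calls were lost with only the libraries of the groups compared, where 0% of all genes passed. With the length offset 1.4% did, and fewer of all genes also passed without either RBI2 library of that label. Leaving out control replicate 2 gave 0 higher and 2 lower, DIS3 and RBM7, where 9.61% of all genes passed, and leaving out control replicate 1 gave 14 calls, where 45.3% did. The medians above use both control libraries. Without control replicate 1 they were -0.47 for the 17 genes and 0.09 for the core. The core median was below 0 in every comparison with the control once control replicate 2 was left out, as given above. The gap between the sets therefore depends on the control library used. DIS3, the catalytic nuclease of the nuclear complex, was at 76.4 and 103 CPM in the control libraries and at 55.2 and 54.9 CPM in this group, with a log2 fold change of -0.70 ± 0.15 (SE). ZCCHC7, the zinc-knuckle protein of TRAMP, was at 24.1 and 28.0 CPM in the control libraries and at 19.6 and 18.7 CPM in this group, with a log2 fold change of -0.44 ± 0.11 (SE). In the other 5 comparisons with the control the calls among the 17 were 1, RBM7 with CX-5461 labelled 10 min, which fell by 0.73 on the log2 scale, where 2.98% of all genes were lower.

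Between the compounds at the label 120 min, 5 of the 17 were lower with RBI2 and 0 higher, where 10.9% of all genes tested were lower. Fewer of all genes passed with the length offset, 6.56% in either direction, and fewer also without any single library of that label. The count of 5 may therefore depend on single libraries. SKIC3, the scaffold of the cytoplasmic SKI complex, had the largest difference, a log2 fold change of -1.01 ± 0.18 (SE), with 45.3 and 45.2 CPM for RBI2 and 81.2 and 101 CPM for CX-5461. DIS3 differed by -0.63, MTREX, the helicase of TRAMP and NEXT, by -0.50, and RBM7, the RNA-binding subunit of NEXT, by -0.42. DIS3L, the cytoplasmic nuclease, was the other gene that was lower. Over all labels 0 of the 17 passed in edgeR, with 5 at an unadjusted p under 0.05, as 26.7% of all genes were. With either control library left out, the calls among the 17 were 9 at the label 120 min and 5 over all labels. At the label 120 min 29.7% of all genes passed without control replicate 1 and 29.5% without control replicate 2, and over all labels 22.9% and 22.5% did, so 5 of 17 is near the background. RBM7 differed in the other direction at the label 10 min, where it was 0.51 higher with RBI2, at 52.0 and 44.8 CPM against 35.2 and 32.6 CPM. EXOSC6 was thus the 1 core gene called between the compounds, in the direction opposite to the called exosome genes at the label 120 min.

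Of 10 genes for decay from the 5′ end, 2 rose (EDC3 and EDC4) and 1 fell (XRN2, the nuclear 5′ exonuclease) with RBI2 labelled 120 min against the control, where 18% of all genes passed. These calls were lost with only the libraries of the groups compared, where 0% of all genes passed. Among the other 5 comparisons with the control the 1 call was DCP2, lower with CX-5461 labelled 10 min, where 2.98% of all genes were, and this call was lost without control replicate 2. EDC4, a scaffold for decapping, was 0.41 higher on the log2 scale and was the 1 of these called without control replicate 2. At that label 3 of the 10 were lower with RBI2 than with CX-5461, namely XRN1, XRN2 and DCP2, where 10.9% of all genes were lower. XRN2 was at a log2 fold change of -0.42 and DCP2, the decapping enzyme, at -0.51. As with the other exosome genes, this count may depend on single libraries of that label. DCP2 was 0.53 higher with RBI2 at the label 10 min, where CX-5461 had 27.6 and 29.7 CPM against 40.3 and 42.8 CPM with RBI2. Over all labels XRN2 was lower and DCP1A higher with RBI2, where 8.59% of all genes passed, and the median of the 10 genes was -0.0010.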

How the data were processed

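Poly(A) RNA was sequenced in 14 libraries with a stranded kit. Per the labels and the study's methods, the authors removed reads that aligned to the rDNA repeat and assigned the rest to GRCh38 transcripts with Salmon 1.3.0 (the submitters' processing notes also name STAR 2.7.6a, SAMtools 1.11, bedtools 2.29.2 and DESeq2 1.28.1). The deposited estimated counts are neither normalized nor rounded, and the deposited TPM values were used only for levels per length. The deposited effective lengths served as an offset in one alternative.

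Of 228754 transcripts, 225662 matched GENCODE release 44, and the others took 1.03% to 1.13% of a library. Estimated counts were summed per gene, rounded, and kept by filterByExpr (minimum count 10). edgeR 4.0.16 (R 4.3.3, limma 3.58.1) fitted one quasi-likelihood model of 7 groups with TMM scaling, with Benjamini-Hochberg adjustment over 15426 genes in each of 11 comparisons. A gene was called at an adjusted p under 0.05. The same control libraries enter every comparison with the control. DESeq2 1.42.0, DESeq2 size factors, no filter, no mitochondrial genes, a length offset, a replicate block, only the groups compared, a limit of 1 on the log2 fold change, unadjusted p-values and leaving out each library were alternatives. Lists without one control library and likeness without control replicate 2 were added after seeing the data.

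All 10 members are named, and of the 2 further lists the genes with calls, with values for the 8 of the smallest adjusted p and for each further gene that differed between the compounds. The members and lists were chosen with earlier results of these data known. The 300-base RefSeq promoters were cut to the 250 bases before the start, without those of chromosome 8. Plots were drawn with matplotlib in Python.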

Additional observations from a re-analysis of the deposited data

Results flagged for a closer look

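Members and genes of the further lists in which the 2 compounds differed by the direct edgeR test are listed here with the difference of RBI2 minus CX-5461 on the log2 scale. EXOSC6 differed by 0.45 at the label 120 min and by 0.36 over all labels. At the label 10 min RBM7 differed by 0.51 and DCP2 by 0.53. At the label 120 min the differences were -0.42 for RBM7, -1.01 for SKIC3, -0.50 for MTREX, -0.42 for XRN2, -0.63 for DIS3, -0.51 for DCP2, -0.99 for XRN1 and -0.43 for DIS3L. Over all labels XRN2 differed by -0.26 and DCP1A by 0.22. Single outlying libraries were not tested within groups of 2. No explanation of these differences was tested.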

How the results depend on the processing

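Counts of members called against the control depended on which control library was used. Leaving out single libraries gave 0 to 5 calls for RBI2 labelled 10 min, 0 to 6 for 30 min and 0 to 6 for 120 min, and 0 to 5, 0 to 6 and 0 to 6 for CX-5461 labelled 10, 30 and 120 min, the highest each time without control replicate 1, where 30.8%, 40.4%, 45.3%, 39.7%, 41.5% and 22.7% of all genes passed. For RBI2 against CX-5461 the ranges were 0 to 1 at 10 min, 0 to 2 at 120 min and 1 to 2 over all labels, and for any difference among the groups 0 to 6. Without control replicate 1 these counts were 1, 2, 2 and 6, beside 6.68%, 29.7%, 22.9% and 55.3% of all genes. With unadjusted p-values the counts were 3 for RBI2 labelled 10 min, 3 for 30 min, 2, 4 and 2 for CX-5461, 2 and 1 for the compounds at 10 and 30 min, where 14.2% and 7.79% of all genes passed, and 2 for any difference, where 34.2% did. Without the filter they were 3 for RBI2 labelled 30 min, 1 and 3 for CX-5461 labelled 10 and 30 min, and 4 for any difference, beside 6.7%, 6.78%, 6.25% and 17.2% of 34232 genes. DESeq2 gave 3 for RBI2 labelled 30 min and 2 for any difference, beside 12.8% and 28.6% of the genes with an adjusted p. Only the libraries of the groups compared gave 0 for RBI2 labelled 120 min and 2 for the compounds at 10 min, beside 0% and 8.53% of all genes. The length offset and the limit of 1 each gave 0 for RBI2 labelled 120 min, for the compounds at 120 min and over all labels, and for any difference, beside 1.4%, 6.56%, 6.02% and 3.13% of all genes for the offset and 1.82%, 1.67%, 0.882% and 3.62% for the limit. The cause was not tested.

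EXOSC6 with CX-5461 labelled 10 min turned from -0.13 to 0.0041 with the length offset. Leaving out single libraries it ranged from -0.325 without control replicate 2 to 0.0884 without control replicate 1, from -0.0276 to 0.382 for CX-5461 labelled 30 min, and from -0.165 to 0.308 for 120 min, in the same order of the control libraries. EXOSC10 between the compounds ranged from -0.105 to 0.00563 at 10 min, above 0 only without RBI2 10min replicate 1, and from -0.0206, without CX-5461 30min replicate 1, to 0.0307 at 30 min, where DESeq2 gave -0.000245 and its size factors -0.000241. For the 7 members not called, 97 of 1470 alternative values changed sign and 23 became calls, 18 of them without control replicate 1. With the replicate block the counts were unchanged at 3 for RBI2 labelled 120 min and 1 for each of the compounds at 120 min, over all labels and any difference, beside 15.5%, 14.5%, 7.25% and 8.32% of all genes, and 0 elsewhere. Same-numbered libraries did not deviate together, with 3 of 21 pairs over a correlation of 0.1. EXOSC4 and EXOSC5 had the least depth, with 219 and 241 reads in their lowest library, and the widest intervals.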
